A study of Homo sapiens with 4 samples.

Results

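Forkhead (FOX) transcription factor genes were examined for MTF-1 peaks in control and cadmium-exposed MDA-MB-231 cells. The 10 genes were FOXA1, FOXC1, FOXC2, FOXF2, FOXQ1, FOXK1, FOXM1, FOXO1, FOXO3 and FOXP1, chosen by name from the 20033 protein-coding genes of GENCODE 44, and all were found on hg38. For each gene, every peak overlapping the gene or the 50 kb on either side was collected. This gave 114 of the 69299 peaks of the control list and 75 of the 60130 peaks of the cadmium list. The windows of FOXQ1 and FOXF2 overlap on chromosome 6, and peaks in the overlap were counted once in totals, so the 10 genes lie in 9 separate stretches of sequence.

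The MDA-MB-231 line was derived from a triple-negative breast cancer. CUT&RUN, in which an antibody tethers a nuclease to a protein so that the DNA around its binding sites is released and sequenced, was carried out for MTF-1 on 2 libraries from untreated control cells passaged in normal medium and 2 libraries from cells passaged long term in medium with 10 µM cadmium (as cadmium sulfate). The authors merged the libraries of each condition before calling peaks, so each condition is represented by 1 list of positions with no height, score or read count. Depth and the spread between replicates are therefore unknown here, and every difference below is a difference between 2 lists of 1 cell line, given without a test. Expression was not measured in these libraries, so the identity of the cells was not checked against marker genes.

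Forkhead factors share a winged-helix DNA-binding domain that reads short A- and T-rich sequences, and several can bind closed chromatin. In breast cancer, FOXA1 is known as the pioneer factor of luminal cells, whereas FOXC1, FOXC2 and FOXQ1 are associated with basal-like and mesenchymal states. FOXM1 drives mitotic genes, FOXO1 and FOXO3 are stress-responsive factors held out of the nucleus by AKT signaling, FOXK1 regulates metabolism and autophagy, and FOXP1 is mainly a transcriptional repressor. MTF-1 is the zinc finger factor that activates metallothionein genes through metal response elements (MREs). It is not itself a forkhead protein. Peaks are called lost when a control peak shared no base with any cadmium peak, gained when a cadmium peak shared no base with any control peak, and shared otherwise. A site is a run of overlapping peaks of both lists, and distances run from the start of a gene's canonical transcript to the center of the peak or site unless another start is named.

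The windows held 4 gained peaks among 75 cadmium peaks (5.33%), beside 15.1% gained in the whole cadmium list. None of the 4 lay within 1 kb of a start of its gene. The sequence of each is shown because these are all the peaks at the 10 genes found in the cadmium list only. Each stretch is the 300 bp of the peak with the most matches to the 3 motifs searched, on the plus strand of hg38. Capitals mark a match on either strand to the AP-1 string TGACTCA or its reverse complement, to a forkhead string (GTAAACA with either A or G as the first base and either C or T as the sixth) or to an MRE core (TGCACNC with either A or G as the fourth base).
FOXA1 gained peak, chr14:37580250-37580549: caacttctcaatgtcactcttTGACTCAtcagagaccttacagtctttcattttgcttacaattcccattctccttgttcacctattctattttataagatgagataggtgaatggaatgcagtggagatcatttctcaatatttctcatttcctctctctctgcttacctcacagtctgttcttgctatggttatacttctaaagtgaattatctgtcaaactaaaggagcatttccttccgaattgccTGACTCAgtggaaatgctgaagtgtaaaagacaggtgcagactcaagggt
FOXO1 gained peak, chr13:40639250-40639549: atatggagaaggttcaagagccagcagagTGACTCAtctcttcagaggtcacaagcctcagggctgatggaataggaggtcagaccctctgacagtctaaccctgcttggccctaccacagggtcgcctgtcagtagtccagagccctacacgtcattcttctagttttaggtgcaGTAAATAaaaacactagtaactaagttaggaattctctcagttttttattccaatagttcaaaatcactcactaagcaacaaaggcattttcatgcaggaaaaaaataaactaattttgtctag
FOXF2 gained peak, chr6:1404150-1404449: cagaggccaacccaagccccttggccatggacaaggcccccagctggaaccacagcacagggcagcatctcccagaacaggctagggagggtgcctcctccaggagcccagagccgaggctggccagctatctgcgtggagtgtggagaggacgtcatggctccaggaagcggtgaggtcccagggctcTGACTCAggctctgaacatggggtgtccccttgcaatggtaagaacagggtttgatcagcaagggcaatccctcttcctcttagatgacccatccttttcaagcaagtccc
FOXK1 gained peak, chr7:4706450-4706749: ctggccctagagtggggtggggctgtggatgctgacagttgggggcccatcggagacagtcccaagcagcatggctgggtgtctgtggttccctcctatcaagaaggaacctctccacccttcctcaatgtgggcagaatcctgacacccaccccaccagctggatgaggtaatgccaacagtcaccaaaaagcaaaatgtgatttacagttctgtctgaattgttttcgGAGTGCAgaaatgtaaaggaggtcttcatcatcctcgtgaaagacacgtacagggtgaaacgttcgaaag
The AP-1 string TGACTCA, a binding sequence of FOS/JUN dimers, occurred 2 times in the FOXA1 stretch and 1 time each in the FOXO1 and FOXF2 stretches. In the whole cadmium list, 32.6% of gained peaks had this string in the 500 bp around their center. The FOXK1 stretch had no AP-1 or forkhead string and 1 MRE core. The FOXO1 stretch also had 1 forkhead string.

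From the lost peaks, the non-exonic one with the most forkhead strings at FOXP1 and that with the most at the other genes are shown. Each is again given as the richest 300 bp on the plus strand, with the same capitals. Because they were picked by this count, they do not represent lost peaks in general. The third sequence is the RefSeq (GRCh38.p14) promoter of a FOXP1 start that was covered in control cells and not in cadmium-treated cells, given as the 250 bp before that start, on the minus strand.
FOXP1 lost intronic peak, chr3:71011609-71011908: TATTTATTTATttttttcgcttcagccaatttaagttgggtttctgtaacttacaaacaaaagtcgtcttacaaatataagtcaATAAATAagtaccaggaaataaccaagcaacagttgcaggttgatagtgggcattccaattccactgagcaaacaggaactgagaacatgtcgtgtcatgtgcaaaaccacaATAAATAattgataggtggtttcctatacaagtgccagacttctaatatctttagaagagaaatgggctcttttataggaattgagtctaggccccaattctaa
FOXC1 lost upstream peak, chr6:1596694-1596993: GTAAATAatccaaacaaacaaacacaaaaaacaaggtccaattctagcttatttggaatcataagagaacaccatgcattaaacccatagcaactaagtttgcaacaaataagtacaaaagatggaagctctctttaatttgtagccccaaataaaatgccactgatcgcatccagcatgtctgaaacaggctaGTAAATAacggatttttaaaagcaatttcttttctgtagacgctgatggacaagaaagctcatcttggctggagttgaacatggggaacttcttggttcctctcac
FOXP1 internal promoter, chr3:71304772-71305021: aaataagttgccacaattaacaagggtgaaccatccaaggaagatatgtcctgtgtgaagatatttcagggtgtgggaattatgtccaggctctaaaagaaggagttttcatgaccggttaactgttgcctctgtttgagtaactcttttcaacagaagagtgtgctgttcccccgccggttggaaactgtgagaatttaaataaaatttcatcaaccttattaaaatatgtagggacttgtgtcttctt
The FOXP1 stretch held 4 forkhead strings, and its whole 1999 bp peak held 9. Over whole peaks, 17 of 29 lost and 17 of 19 shared control peaks at FOXP1 held a forkhead string. The FOXC1 stretch held 2 and its 1999 bp peak 4. The FOXP1 internal promoter held no forkhead, AP-1 or MRE core string.

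MTF-1 peaks covered less sequence in cadmium-treated than in control cells at every one of the 10 genes. Together the windows had 224592 bp under control peaks and 120325 bp under cadmium peaks, a ratio of 0.536. Over the whole lists the ratio was 0.697. The median ratio of the 10 genes was 0.586, and that of the 18633 protein-coding genes with a control peak was 0.748, with quartiles of 0.568 and 0.965. Of those genes, 77.3% were covered over fewer bases in cadmium and 18.0% more than 2-fold less, against 10 and 2 of the 10 forkhead genes. The 2 genes below that limit were FOXP1 and FOXC2.

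Of the 114 control peaks at the forkhead genes, 47 were lost, which is 41.2% (95% Wilson confidence interval 32.6 to 50.4%), beside 27.9% of the whole control list. Of the 75 cadmium peaks, 4 were gained, 5.33% (2.09 to 12.9%), beside 15.1% of the whole cadmium list. Neighboring peaks are not independent, and these intervals cover counting error only. FOXP1 held 29 of the 47 lost peaks. Without FOXP1, 18 of 66 control peaks were lost, 27.3% (18.0 to 39.0%), close to the share over the whole list, and the ratio of covered bases was 0.659. The gained share of the other 9 genes was 4 of 53 peaks, 7.55% (2.97 to 17.9%). Every one of the 10 genes lost at least 1 peak, as did 67.0% of protein-coding genes with a control peak. The 4 genes with a gained peak were FOXA1, FOXK1, FOXO1 and FOXF2, and 48.9% of protein-coding genes with a cadmium peak had one. The other 6 genes had lost peaks and no gained peak, as did 36.0% of protein-coding genes with a control peak.

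**Figure D1:**
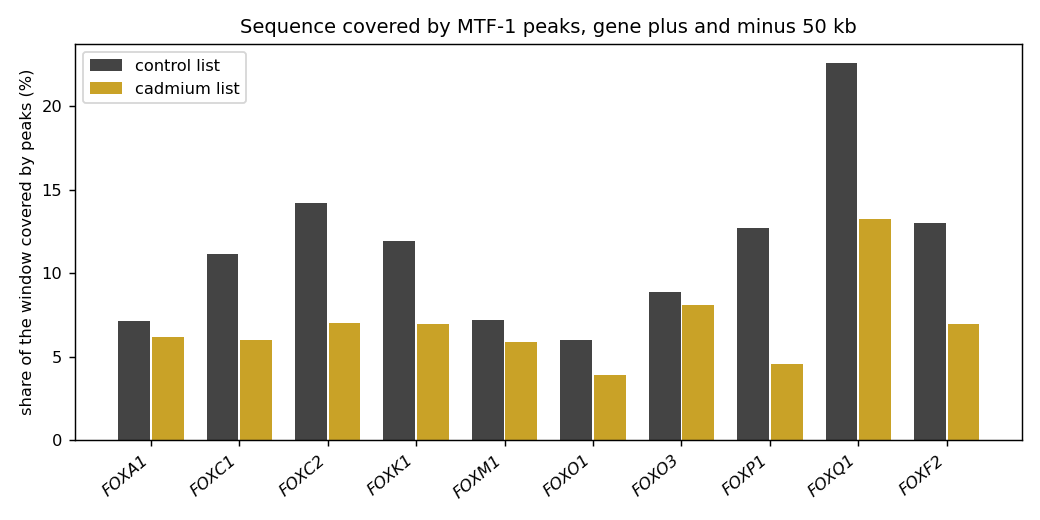
Share of each gene's window (gene plus and minus 50 kb, in percent) covered by the control list (dark bars) and the cadmium list (yellow bars), with 1 merged peak list per condition and no error bars. The control bar is the taller at all 10 genes, from 22.6% against 13.2% at FOXQ1 to 5.97% against 3.88% at FOXO1, and the widest relative gap is at FOXP1, with 12.7% against 4.58%.

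At FOXA1 on chromosome 14 (37589552 to 37596059, minus strand), the window held 6 control and 5 cadmium peaks, which covered 7594 and 6595 bp, a ratio of 0.868. The peak over the start was shared and nearly equal in extent, from 37594001 to 37596599 in control (2599 bp) and from 37593801 in cadmium (2799 bp). A 599 bp peak 3641 bp upstream of the nearest start was lost, as was a 599 bp peak 48349 bp downstream of the canonical start. The gained peak of 399 bp lay downstream of the gene, 14849 bp from the canonical start and 8364 bp from the nearest start of any gene, that of the lncRNA gene ENSG00000289903.

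FOXQ1, FOXF2 and FOXC1, which are linked to mesenchymal development and epithelial plasticity, lie near each other on the plus strand of chromosome 6. FOXQ1 (1312098 to 1314758) had the most densely covered window, with 8 control peaks over 23192 bp and 6 cadmium peaks over 13594 bp, a ratio of 0.586. The control peak over its start, 6599 bp from 1310401 to 1316999, was met by a cadmium peak of 3999 bp from the same first base and by a second from 1315401 to 1318399. A 6199 bp site centered 13602 bp downstream of the start was covered over 1199 bp in cadmium. The 3 lost peaks were 1399, 599 and 799 bp wide and lay 48598 and 44798 bp upstream and 34902 bp downstream.

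FOXF2 (1389576 to 1395603) had 7 peaks in each list, over 13793 bp in control and 7393 bp in cadmium, a ratio of 0.536. Its start-site peak was shared, with 2799 and 2599 bp. The largest contraction was at the 3′ end of the gene, where a 3399 bp control site (1394801 to 1398199) was represented by 1 cadmium peak of 199 bp, a single bin of the peak caller. Its gained peak of 599 bp lay 14724 bp downstream of the start. The only lost peak, of 799 bp, lay in the stretch shared with the FOXQ1 window.

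FOXC1 (1609915 to 1613897) had 5 control peaks over 11595 bp and 3 cadmium peaks over 6197 bp, a ratio of 0.534. A peak over the start was shared, 6199 bp wide in control, where it spanned the whole gene, and 4999 bp in cadmium. Lost were the 1999 bp peak centered 12715 bp upstream of the start, shown above, and a 599 bp peak 20785 bp downstream, which is 4512 bp from a start of GMDS. All 3 shared sites were longer in control.

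FOXC2 on chromosome 16 (86566829 to 86569728, plus strand), a regulator of mesenchymal and lymphatic development, was the only one of the 10 genes without a peak within 1 kb of its start in either list. Its nearest site, centered 2629 bp upstream, was 1599 bp wide in control and 999 bp in cadmium. The window held 8 control peaks over 14592 bp and 5 cadmium peaks over 7195 bp, a ratio of 0.493. The 3 lost peaks all lay downstream, at 6871, 23471 and 48071 bp. The first of them is 2668 bp from a start of FOXL1, another forkhead gene, and the others lie beyond FOXL1 as seen from FOXC2. None of these lost peaks can therefore be assigned to FOXC2 from position alone.

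**Figure D2:**
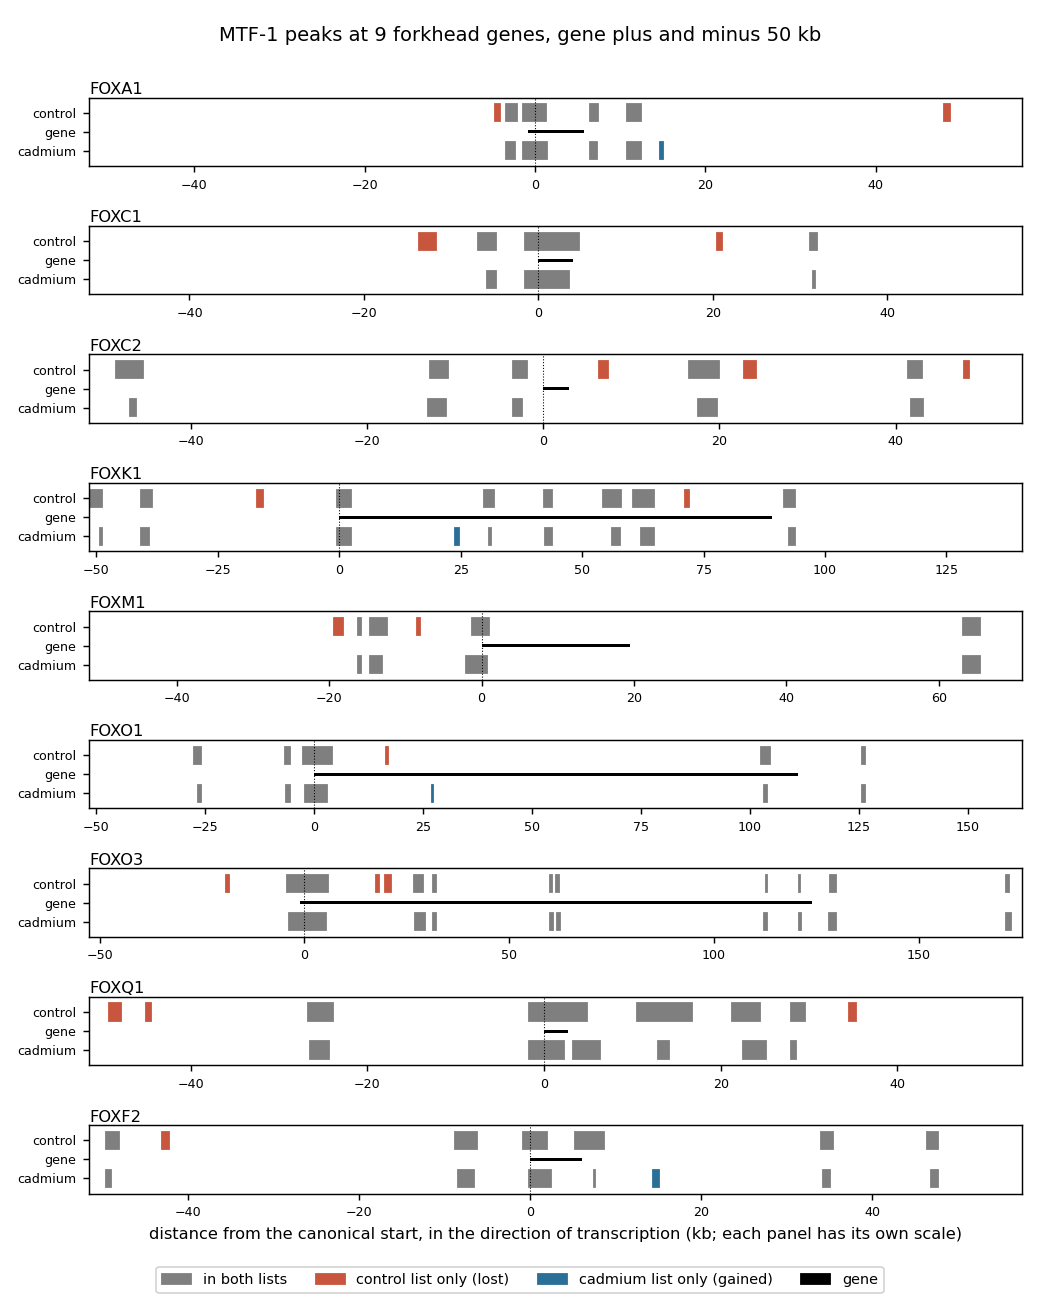
MTF-1 peaks at the 9 forkhead genes other than FOXP1, by distance from the canonical start in the direction of transcription (kb, own scale in each panel), with the control list above and the cadmium list below the gene (black bar) and a minimum line width for narrow peaks. Peaks in both lists are grey, lost peaks red and gained peaks blue. The peaks at the starts are in both lists for 8 of the 9 genes, FOXC2 has none there, and red and blue peaks lie away from the starts.

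FOXM1, the mitotic regulator on chromosome 12 (2857680 to 2877174, minus strand), had 6 control peaks over 8594 bp and 4 cadmium peaks over 6996 bp, a ratio of 0.814. The start-site peak was the wider in cadmium, with 2199 bp in control and 2799 bp in cadmium. The center of its control peak is 77 bp from a start of TULP3, so this peak lies at the starts of both genes. No peak lay inside the gene beyond this one. Both lost peaks, of 399 and 1199 bp, lay upstream, at 8226 and 18826 bp. The first is 419 bp from a start of the lncRNA gene ENSG00000278356 and the second 5093 bp from a start of TULP3. Neither can be assigned to FOXM1 from position alone. The 4 shared sites covered 6996 bp in each list.

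FOXK1 on chromosome 7 (4682295 to 4771442, plus strand) had 10 control peaks over 22496 bp and 9 cadmium peaks over 13191 bp, a ratio of 0.586. The peak at the main start differed little, with 2999 bp in control and 2799 bp in cadmium. The peak near an internal start, centered 56105 bp from the main start in control, went from 3599 to 1599 bp. All 8 shared sites were longer in control, and an intronic site centered 30805 bp from the start went from 2199 to 399 bp. A 1199 bp peak 16295 bp upstream and a 799 bp intronic peak were lost. The gained peak of 799 bp lay in an intron, 24305 bp from the start, and was the widest of the 4 gained peaks.

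The FOXO genes differed in extent. FOXO1 on chromosome 13 (40555667 to 40666641, minus strand) had 6 peaks in each list, over 12594 bp in control and 8194 bp in cadmium, a ratio of 0.651. Its main start-site peak was 6799 bp wide in control and 4999 bp in cadmium, and the peak at an internal start near the 3′ end went from 1999 to 599 bp. Its lost peak (599 bp) and its gained peak (399 bp) lay in the gene's introns, 16741 and 27241 bp from the canonical start. FOXO3 on chromosome 6 (108559835 to 108684774, plus strand) had 12 control peaks over 19988 bp and 9 cadmium peaks over 18191 bp, and its ratio of 0.910 was the highest of the 10 genes. Its start-site peak was the widest at any of the genes, with 9999 bp in control and 8999 bp in cadmium. Of the 9 shared sites at FOXO3, 6 were longer in cadmium and 1 in control, whereas over the whole lists 23.7% of shared sites were longer in cadmium and 58.0% in control. Its 3 lost peaks, of 599, 799 and 1399 bp, lay 18817 bp upstream and 17883 and 20383 bp downstream of the canonical start.

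FOXP1 on chromosome 3 (70954693 to 71583978, minus strand) is the longest of the 10 genes, and its 729286 bp window held 48 control peaks and 22 cadmium peaks. Of the control peaks, 29 were lost, 60.4% (95% Wilson confidence interval 46.3 to 73.0%), beside 27.9% of the whole control list. None of the 22 cadmium peaks was gained, beside 15.1% of the whole cadmium list. The count allows a share of up to 13.6%, taken as 3 of 22 peaks (the Wilson upper limit is 14.9%). Those 22 peaks lay in 19 sites, 2 of which were split in cadmium, so they are not all separate. The bases under peaks fell by 59174, from 92552 to 33378 bp, a ratio of 0.361. Of the 29 lost peaks, 25 lay in introns, 3 overlapped an annotated exon and 1 lay downstream of the gene. Of the 19 shared control peaks, 15 lay in introns, 3 overlapped an exon and 1 lay upstream. The 19 shared sites also contracted, from 58581 bp in control to 33378 bp in cadmium, and 16 of them were longer in control, 2 in cadmium and 1 equal.

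The losses ran along most of the gene. In the 314643 bp nearest the 5′ end, 15 of 23 control peaks were lost, and in the equally long 3′ part 13 of 23. In the order of transcription, 8 consecutive control peaks were lost between 71367201 and 71431599, a span of 64399 bp, and another 6 between 71186001 and 71306199, a span of 120199 bp. Between those runs lay 1 shared site, where a 2199 bp control peak was met by a 199 bp cadmium peak. The widest lost peak, and the widest at any of the 10 genes, spanned 3599 bp in an intron from 71086201 to 71089799. By contrast, the peak over the main start kept its extent, with 8599 bp in control and 8799 bp in cadmium. The other shared sites at starts of FOXP1, all internal, were shorter in cadmium. They went from 7799 to 5199 bp, from 4399 to 1797 bp and from 5599 to 3799 bp.

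The surroundings of FOXP1 showed a smaller difference. Within 1 Mb on both sides of the window, 14 of 42 control peaks were lost (33.3%, 21.0 to 48.5%), 7 of 33 cadmium peaks were gained and the ratio of covered bases was 0.712. On the rest of chromosome 3, 1117 of 4196 control peaks were lost (26.6%) and the ratio was 0.762. Control peaks were denser in the FOXP1 window, at 6.58 per 100 kb, than on the rest of the chromosome, at 2.13, and cadmium peaks stood at 3.02 and 1.88. Of all protein-coding genes, 2 had more lost peaks in their window than FOXP1, a count that grows with gene length. Among the 374 genes with at least 20 control peaks, a group set after the values of FOXP1 were seen, 10 had a higher share of lost peaks and 37 a lower ratio, and the median ratio was 0.637.

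**Figure D3:**
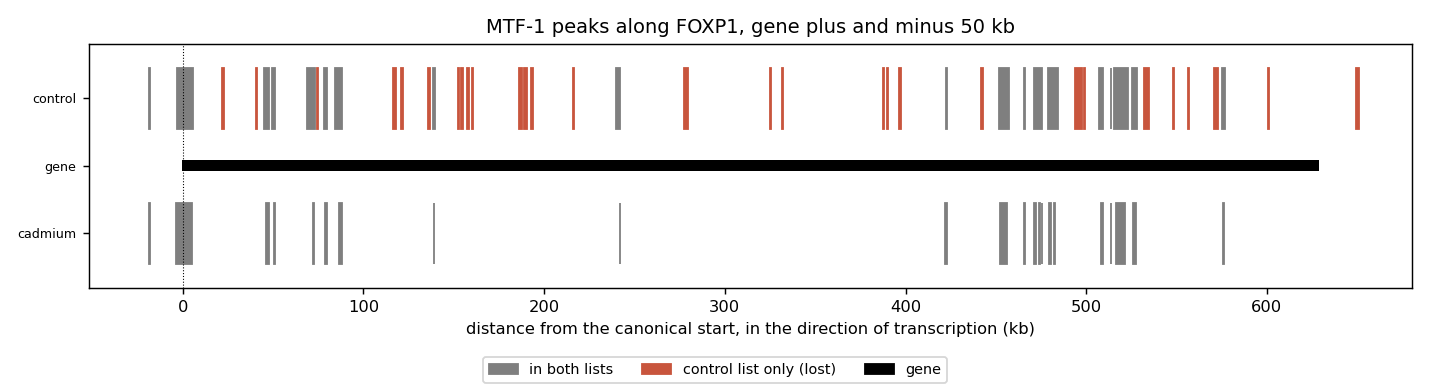
MTF-1 peaks along FOXP1 by distance from the canonical start (kb, in the direction of transcription), with the control list above and the cadmium list below the gene (black bar) and a minimum line width for narrow peaks. Grey peaks are in both lists and the 29 red peaks are in the control list only. The grey peak at 0 is of like extent in both lists, and the stretches of 8 and 6 consecutive red peaks lie in the middle of the gene.

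Start sites were kept at the level of the gene. A peak within 1 kb of an annotated start was found for 9 of the 10 genes in control and for the same 9 in cadmium, and among all protein-coding genes for 73.2% and 71.5%. Of protein-coding genes with such a peak in control, 4.37% had none in cadmium. Counted as peaks, 17 control peaks and 14 cadmium peaks lay at starts of the 10 genes. The 3 lost ones were all at internal starts of FOXP1, which has 67 annotated start positions. They ran from 71186001 to 71187199, from 71304201 to 71306199 and from 71542401 to 71542999. The second covers the internal promoter shown above.

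The RefSeq promoter table matched 8 of the 10 genes, with 16 promoters. FOXC2 and FOXM1 had no entry. Control peaks covered the whole 250 bp upstream of the start for 13 of the 16 promoters and cadmium peaks for 11. The promoter that went from fully covered to uncovered, the internal one of FOXP1 shown above, had a GC content of 39.2%. The 2 FOXP1 promoters that stayed fully covered, at 71583729 to 71583978 and at 71064925 to 71065174, had 74.0 and 75.6%. A FOXO3 promoter with 47.6% also stayed fully covered, and the FOXF2 promoter, with 70.8%, went from 250 to 175 bp covered. MRE core strings were present in 7 of the 16 promoters, against 24.8% of 35116 promoters in the table. A forkhead string was present in 3, against 12.4%, and an AP-1 string in 1, against 4.2%. Some of these promoters overlap, and the matches are descriptions of sequence and not of binding.

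Lost peaks were narrower than shared ones. At the 10 genes, lost peaks had a median width of 799 bp (399 to 3599 bp) and shared control peaks 2199 bp (399 to 9999 bp). At FOXP1 the medians were 999 and 2199 bp. Because narrow peaks are lost more often in the whole list, shares were compared within classes of width. Of FOXP1 peaks of 1000 to 2199 bp, 11 of 17 were lost (64.7%), against 24.4% of control peaks of that width in the whole list. Of those of 600 to 999 bp, 8 of 9 were lost, against 32.1%, and of those of 2200 bp or more, 2 of 11, against 14.8%. Had each FOXP1 peak been lost at the rate of its width class in the whole list, 13.5 of the 48 would have been lost. For the other 9 genes this number was 17.6 of 66, beside the 18 lost. None of their 19 peaks of 2200 bp or more was lost.

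**Figure D4:**
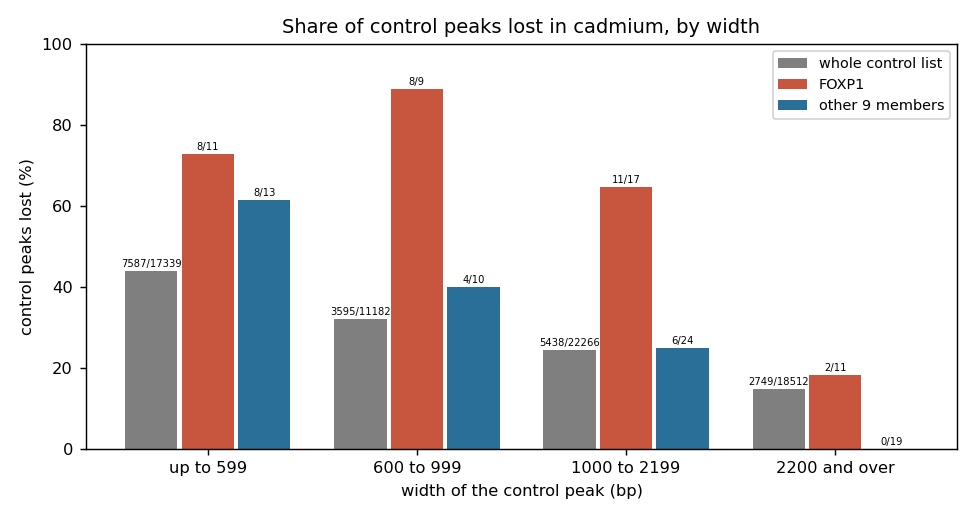
Share of control peaks lost in cadmium (%) in 4 classes of peak width (bp), for the whole control list (grey), FOXP1 (red) and the other 9 forkhead genes (blue), with the number lost and the number of peaks above each bar. The red bar is the tallest in each class, by the least in the widest class, where 2 of 11 FOXP1 peaks and 14.8% of the whole list were lost.

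Motifs were counted in the 500 bp around each peak center. In the whole control list, 41.1% of lost and 26.4% of shared peaks had a forkhead string, and the lost peaks had a lower median GC content, 43.6% against 49.2%. At FOXP1 the order was the other way, with a forkhead string in 9 of 29 lost peaks (31.0%) and 11 of 19 shared control peaks (57.9%). The median GC content of these FOXP1 peaks was 43.2% and 42.8%. Counted over the whole peaks, forkhead strings were equally dense in lost and shared FOXP1 peaks, at 1.30 and 1.26 per kb. At the other 9 genes, 8 of 18 lost peaks (44.4%) and 10 of 48 shared control peaks (20.8%) had a forkhead string, with a median GC content of 46.3% and 53.1%. Base composition thus moved with the motif there, and its part in the difference was not tested.

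The AP-1 string was found in 13 of 47 lost peaks (27.7%) and 15 of 67 shared control peaks (22.4%) at the 10 genes, beside 24.5% of both classes in the whole list. Of the 4 gained peaks, 3 had it, beside 32.6% of the 9074 gained peaks of the whole list. MRE cores were in 15 of 47 lost peaks (31.9%) and 30 of 67 shared control peaks (44.8%), beside 28.8 and 36.5% of the whole list.

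The other 41 forkhead genes of the annotation were given as a comparison. Peaks overlapped the windows of all but 5 of them, and 36 had a control peak. Of those 36 genes, 27 were covered over fewer bases in cadmium, 7 over more and 2 equally, and the median ratio was 0.735. In their windows 45 of 200 control peaks were lost (22.5%) and 24 of 188 cadmium peaks gained (12.8%). Over the whole lists these shares were 27.9% and 15.1%. The lost peaks include all 3 of the FOXC2 window, which the windows of FOXL1 and FOXF1 overlap. A start-site peak was in both lists for 18 genes, in neither for 21, in control only for FOXN1 and in cadmium only for FOXN4. FOXD4L3 and FOXI3 had the lowest values, with 199 and 1399 bp in control and none in cadmium, followed by FOXD4L6 (1998 to 399 bp) and FOXD4 (3797 to 798 bp), each with 3 control peaks or fewer. FOXI1 had the highest ratio, 2.60, from 999 and 2596 bp. Of genes with more control peaks, FOXA2, a liver and gut forkhead factor, went from 23795 to 5396 bp with 3 of 5 control peaks lost, a ratio of 0.227, and FOXO6 from 11593 to 18980 bp, a ratio of 1.64. Of the FOXP1 paralogs, FOXP4 went from 47770 to 23389 bp with 5 of 15 control peaks lost, and FOXP2 from 9394 to 8195 bp with 1 of 6 lost. FOXD4 and its FOXD4L copies, and FOXO3 and FOXO3B, are nearly identical in sequence, so the placement of reads among them is uncertain.

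Known targets of FOXO factors and of FOXM1 were given in the same way. All 15 FOXO targets had a start-site peak in both lists, and their median ratio was 0.787. Of their control peaks, 18 of 106 were lost (17.0%), beside 27.9% of the whole control list. The lowest ratio was that of CCNG2, a cyclin that restrains proliferation, at 0.325 with 2 of 4 control peaks lost, and the highest that of PIK3IP1, an inhibitor of PI3K, at 1.47 with 2 of 6 cadmium peaks gained. All 15 FOXM1 targets also had a start-site peak in both lists, with a median ratio of 0.761 and 8 of 113 control peaks lost (7.08%). Their ratios ran from 0.482 for AURKA to 1.05 for PLK1, both mitotic kinases.

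**Figure D5:**
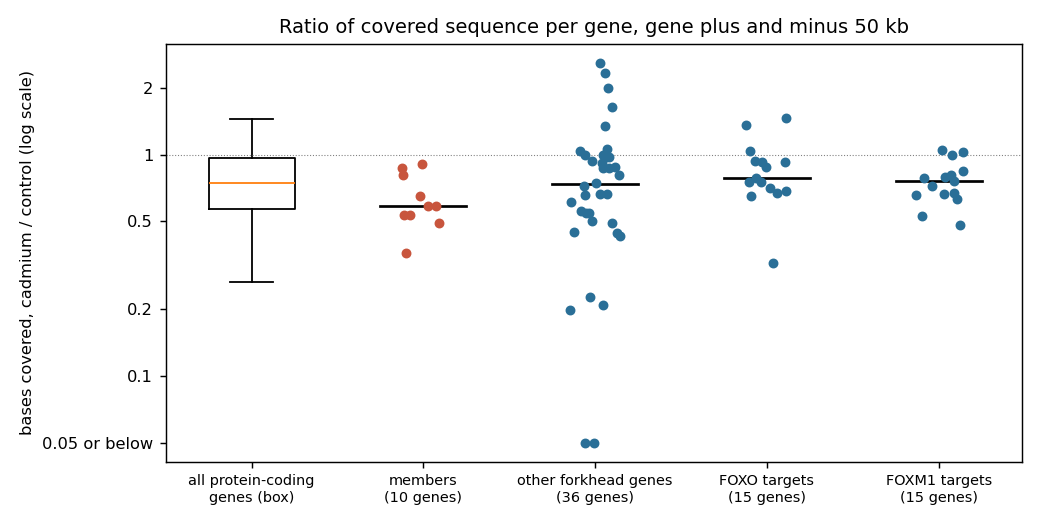
Bases covered by cadmium peaks divided by bases covered by control peaks per gene (log axis, values of 0.05 and below drawn at 0.05), for all 18633 protein-coding genes with a control peak (box of quartiles with the median, whiskers at the 5th and 95th percentiles), the 10 forkhead genes (red), other forkhead genes and targets (blue), with a black line at each median. The 10 red points all lie below 1, from 0.361 to 0.910, and the medians of the other lists, 0.735, 0.787 and 0.761, lie near the 0.748 of all genes.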

How the data were processed

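MTF-1 CUT&RUN peaks of 2 control and 2 cadmium libraries were used. The authors' pipeline removed adaptors, mapped the reads to hg38 (Bowtie2), pooled both replicates of a condition (SAMtools 1.8) and called peaks with Epic2 (listed as SICER 0.0.50) at default parameters, with no control library named. The deposited lists hold a start and an end in bp and a last column with 1 distinct value, so no unit other than bp applies. Narrow peaks near the threshold may depend most on depth, which could not be corrected for.

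Starts and ends are given 1-based. All peaks fit the hg38 chromosomes except 1 in each list that ends past the mitochondrial genome's end. Genes and transcript starts came from GENCODE 44 and distances from peak centers. Overlap required 1 shared base, and a site was counted whole in both lists where it ran past a window's edge. A start-site peak lay within 1 kb of any start of its gene. Motif strings were searched on both strands in the reference genome. Shares have 95% Wilson intervals (scipy 1.17.1), and scripts were tested on simulated data. FOXL2NB, a neighbor of FOXL2, was left out of the forkhead list.

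All 10 genes are named. Single peaks were mainly chosen from those that lie at a start, are lost or gained, or are the widest at their gene. Not every such peak is named, and most of the lost peaks of FOXP1 are not. Of other genes, those with a start-site peak in 1 list and those with the extreme ratios are named, and FOXA2, FOXD4, FOXD4L6, FOXO6, FOXP2, FOXP4 and the shared sites named for their contraction were chosen after their values were seen. The members and lists were chosen with earlier results of these data known.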

Additional observations from a re-analysis of the deposited data

How the results depend on the processing

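No replicate could be left out, since the libraries of each condition were merged before peaks were called. No paired analysis was possible because each condition has 1 list and the result comes from no test. A stricter caller threshold could not be tried without scores, so a minimum width stood in for it. With the other list required to cover at least 50% of a peak, 57.9% of control peaks at the forkhead genes were lost, beside 46.2% of the whole list, and at FOXP1 79.2%. With only peaks of at least 1000 bp kept in both lists, 52.1% were lost at the forkhead genes, beside 42.3% of the whole list. Under this width minimum, a control peak met only by narrower cadmium peaks also counts as lost, so these shares include contracted sites. Without FOXP1 the share was 27.3%. The share at FOXP1 under other windows or the width minimum, alternatives chosen after seeing the data, ran from 58.5% (100 kb) to 71.4% (width). The other alternatives for gained peaks, covered bases and start-site peaks stayed within the interval of the reported value or within 1.5 times of it, with ratios of covered bases between 0.490 and 0.659. With a limit of 3 kb, all 10 genes had a start-site peak in both lists.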
